A study of Mus musculus with 4 samples.

Results

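The nuclear genes of oxidative phosphorylation were examined in a transcriptome-wide map of N6-methyladenosine (m6A) in mouse splenic natural killer (NK) cells. Members were the protein-coding genes of the GRCm38 annotation whose symbols name the subunits of complexes I to V, the complex I assembly factors of the Ndufaf series, or cytochrome c. The rule used symbols and no measured value, and it gave 96 genes of 21951 protein-coding genes, under 95 symbols, because Atp5o stands for 2 gene identifiers. These genes held 170 of the 20727 distinct peaks in the map.

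The data came from methylated RNA immunoprecipitation sequencing (MeRIP-seq), in which fragments of poly(A) RNA are captured with an antibody against m6A and sequenced beside uncaptured input. There were 4 libraries, 2 m6A immunoprecipitates made with an antibody from Synaptic Systems and 2 input RNA libraries made without antibody. All came from splenic NK cells of young adult C57BL/6 mice, whose NK cells had been amplified in vivo with the pLIVE-IL-15 plasmid and then sorted. The deposited result was 1 list of peaks over all libraries, so the fold enrichment of a peak (immunoprecipitate over input) and its significance (log10 of the unadjusted p-value of the peak caller, more negative meaning more significant) are pooled values with no spread between replicates, and the depth of each library is unknown. All 10 NK cell marker genes examined (Ncr1 and Prf1 among them) carried peaks, but so did 3 of 5 B cell, 3 of 5 T cell, 5 of 5 myeloid and 4 of 5 red cell markers, and the part of other cells in the values below was not tested. In such bulk RNA, fewer cells of a type and less RNA per cell cannot be told apart.

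Oxidative phosphorylation passes electrons from NADH (complex I) and succinate (complex II) through complex III, cytochrome c and complex IV to oxygen, and complex V uses the resulting proton gradient to make ATP. A few subunits are encoded in the mitochondrial genome, whereas most come from nuclear genes with short messenger RNAs. NK cells raise their respiration when stimulated with IL-15. The m6A mark is written on messenger RNA by the METTL3 and METTL14 methyltransferase, mostly at the DRACH sequence (A, G or T, then A or G, then A, then C, then A, C or T), and is known for its concentration near stop codons.

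The sequences below are DRACH sites of the most significant member peaks. They were picked for GGAC, so that their likeness is set by the choice, and 69 of the 152 member peaks placed on a transcript held no GGAC. For 14 members with the most significant peaks, only the most significant peak of each was searched. The GGAC site in it nearest to the stop codon was taken where a window of 30 nt around the site lay in 1 exon. The 10 members with such a window are printed 5′ to 3′ with the DRACH pentamer in capitals. Sequences are those of the GENCODE transcripts on GRCm38.
Atp5h (chr11:115415782-115415811, minus strand): agaaaccaagctGGACAaaaagaagtaccc
Atp5e (chr2:174461119-174461148, minus strand): tcacctcctgggGGACAggctgcccatctc
Cox6a1 (chr5:115345795-115345824, minus strand): caggcaacaaagGGACCacagcactggttt
Atp5b (chr10:128090109-128090138, plus strand): acgggtcgtgagGGACTccagccaaaggca
Ndufb7 (chr8:83571573-83571602, plus strand): ccgccagcctgtGGACCtatcagtgaaata
Atp5j (chr16:84831344-84831373, minus strand): gaaactcttcgtGGACAagataagagagta
Cox7a2l (chr17:83502572-83502601, minus strand): cttgcctgtggaGGACTggttcactttgtg
Uqcr10 (chr11:4702143-4702172, minus strand): cctgcccctgtgGGACCcgaaggaacagtc
Cox8a (chr19:7215211-7215240, minus strand): tggtgacaactgGGACCacatgtattggct
Ndufa4 (chr6:11900557-11900586, minus strand): ctctgtgaatgtGGACTacagcaaactgaa

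Counted from the last coding base, with negative positions inside the coding sequence, the printed pentamers began at -192 in Atp5j, -48 in Atp5h and -36 in Ndufa4. The other 7 lay in the 3′ untranslated region (3′ UTR), at 5 in Atp5b, 17 in Cox7a2l, 19 in Uqcr10, 23 in Ndufb7, 34 in Cox6a1, 92 in Atp5e and 164 in Cox8a. In Cox5b, Cox6c, Uqcrb and Atp5j2, the remaining 4 of the 14, no GGAC site of the most significant peak met the window rule. A matching sequence describes the transcript under the peak and does not show which adenosine was methylated.

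Most oxidative phosphorylation transcripts were in the map. Of the 96 genes, 87 (90.6%) had an assigned peak, beside 46.3% of all protein-coding genes. With peaks at p below 0.001 only, 85 (88.5%) had one, beside 34.0%. These comparison shares count every annotated gene, whether or not it was expressed in these cells, and the part of expression in the difference was not tested. A single peak was listed for 35 members, 2 peaks for 33 and 3 or more for 19, so that 52 of the 87 (59.8%) had at least 2, beside 46.7% of protein-coding genes with a peak. Among them 4 genes (Cox4i1, Ndufb2, Ndufb5 and Uqcrc2) had peaks that overlapped each other on the genome, 9 peaks in all, which were counted separately.

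The enrichment of these peaks was modest. The median fold enrichment of the 170 peaks was 1.93 (quartiles 1.57 and 2.67), beside 2.37 (1.68 and 6.64) over all peaks of protein-coding genes, and 87 member peaks were below 2-fold. A strong peak, defined as at least 5-fold, was present in 14 of the 87 members (16.1%), beside 43.4% of protein-coding genes with a peak. Counted by peaks, 15 of 170 (8.82%) were strong, beside 29.5% of the peaks of protein-coding genes. The peaks were nevertheless significant in the list, since 49 (28.8%) had a log10 p below -30, beside 9.17% of the peaks of all protein-coding genes, and the medians were -12.9 and -4.16. The values cannot be set against the abundance of each transcript, because the list gives none.

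**Figure D1:**
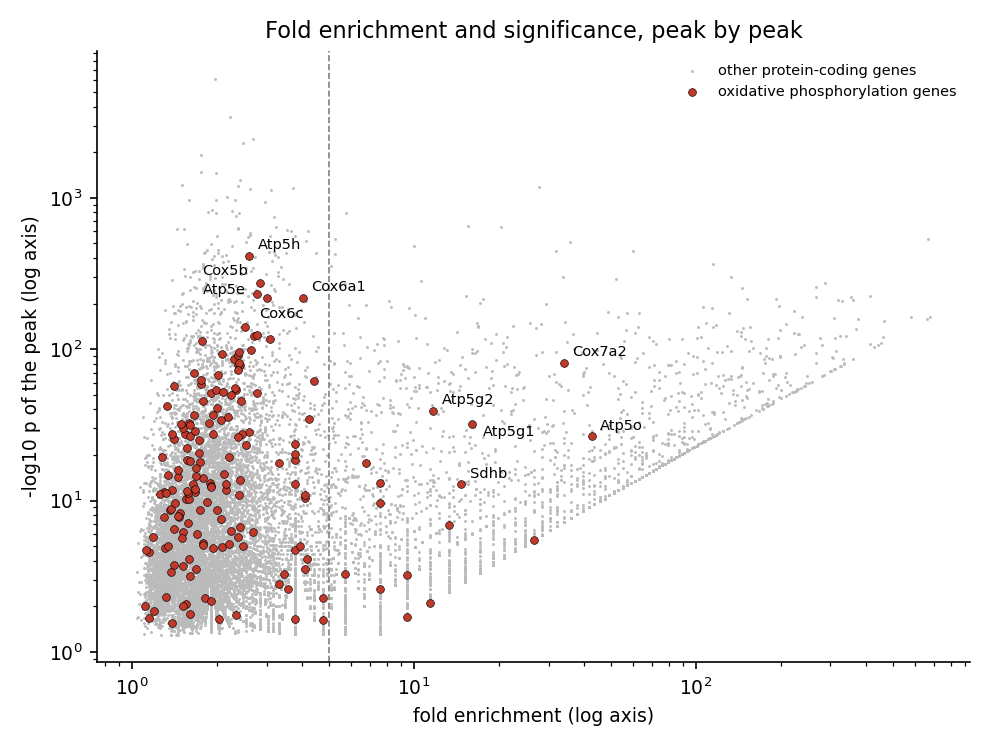
Fold enrichment (x axis, log scale) against the significance of each peak (y axis, minus log10 p, log scale) for the 170 peaks of oxidative phosphorylation genes (red) and the peaks of other protein-coding genes (grey), with a dashed line at 5-fold. The most significant member peaks, Atp5h to Cox6a1, lie between 2 and 5-fold, while 15 member peaks lie right of the line.

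Fold enrichment and significance ordered the member peaks differently. The 15 most significant member peaks had fold enrichments from 1.77 to 4.03, and 0 of them were strong, beside 8.82% of all member peaks. First among them was Atp5h, a subunit of the peripheral stalk of complex V, with a log10 p of -414 at 2.60-fold, which ranked 67 among the 18250 peaks of protein-coding genes. It was followed by Cox5b (-274, 2.85-fold, rank 109), Atp5e (-232, 2.77-fold, rank 142), Cox6a1 (-219, 4.03-fold, rank 152) and Cox6c (-219, 3.02-fold, rank 153). The Cox6c peak also lay over 1375 nt of exons of Vps13b on the opposite strand, against 451 nt of Cox6c exons. The peak next in significance after these 15, that of Cox7a2 (34.1-fold, log10 p -81.3), was strong. Strong member peaks had a median log10 p of -9.63, against -12.9 for weaker member peaks. A log10 p below -10 was listed for 7 strong member peaks (46.7%), beside 25.0% of the strong peaks of protein-coding genes. Of all peaks, strong or not, 103 of 170 in members and 4713 of 18250 in protein-coding genes passed the same limit. Among the peaks that passed it, 6.8% were strong in members and 28.6% in protein-coding genes. Some strong values recurred exactly: 7.59-fold was listed for 3 member peaks and 395 peaks of the whole list (median log10 p -1.96), and 9.48-fold for 2 member peaks and 1024 peaks of the list (median log10 p -1.69).

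Complex I receives electrons from NADH through a core of catalytic subunits surrounded by accessory ones. Of the 7 nuclear core subunits 6 had a peak, and Ndufv2 had none. Their median fold enrichment was 1.71. Ndufs1, the largest subunit of the complex, carried a peak of 3.31-fold (log10 p -17.7) with 42 nt in its coding sequence. Its strong peak of 26.6-fold was far less significant (-5.48) and touched no exon of the longest coding transcript. Ndufv1, which binds the NADH, had a single peak of 2.59-fold over the stop codon (log10 p -28.3). Ndufs3 and Ndufs8 had 2 peaks each, with folds from 1.19 to 1.69.

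Among the 29 accessory subunits 28 had a peak, all except Ndufc2, and 3 had a strong one. Ndufab1, the mitochondrial acyl carrier protein, had 6 peaks from 1.41 to 11.4-fold, of which the 11.4-fold peak lay in the distal 3′ UTR with a log10 p of -2.09. Another, of 4.17-fold, touched no Ndufab1 exon and lay over an exon of Gm44986 on the opposite strand. Ndufs5 carried 1 peak of 7.59-fold (log10 p -13.1) across 95.6% of its transcript, whereas the 7.59-fold peak of Ndufs4, 1 of its 3, covered the start codon with a log10 p of -2.59. The most significant accessory peaks belonged to Ndufb7 (1 of 3 peaks, 2.70-fold, -123) and Ndufb11 (2.37-fold, -78.4), and both held the stop codon. Ndufb5 had 4 peaks, 3 of which overlapped each other at the start codon, each listed at 3.79-fold and each overlapping exons of Mrpl47 on the opposite strand. Ndufa3, Ndufa7, Ndufb2, Ndufb8 and Ndufv3 had 3 peaks each and Ndufa10, Ndufa12, Ndufb10, Ndufb4 and Ndufs6 had 2, and none of these 10 reached 5-fold.

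The assembly factors of complex I, which build the complex but do not stay in it, stood lower in significance than the subunits. Of 8 genes 7 had a peak (Ndufaf6 had none), 0 had a strong one, and the lowest log10 p was -5.74, in Ndufaf1 (2.37-fold). The highest fold enrichments were 4.11 in Ndufaf4 and 3.79 in Ndufaf7. Of their 9 placed peaks, 77.8% had their centre in the 3′ UTR, against 13.6% for the 59 placed peaks of the complex I subunits. Ndufaf2, Ndufaf3 and Ndufaf7 had 2 peaks each, and 1 of the Ndufaf2 peaks (1.37-fold) touched only an exon of Smim15 on the opposite strand.

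The coding stretches below lay under complex I peaks inside the reading frame and have every DRACH pentamer in capitals. They were chosen after their values were seen, for holding 2 GGAC sites each, whereas 30 of the 59 placed peaks of complex I subunits held no GGAC. The Ndufab1 stretch (chr7:122093613-122096544, minus strand, 88 exonic bases) lay under a peak of 4.11-fold (log10 p -10.4). The stretch held 3 DRACH sites, 2 of them GGAC. The same peak lay over 462 nt of exons of Gm44986 on the opposite strand, against 270 nt of Ndufab1 exons. The Ndufb8 stretch (chr19:44552777-44553530, minus strand, 77 exonic bases) lay under a peak of 1.90-fold (log10 p -12.2) and also held 3 DRACH sites, with 2 GGAC. That peak also lay over 55 nt of exons of Gm20538 on the same strand.
Ndufab1: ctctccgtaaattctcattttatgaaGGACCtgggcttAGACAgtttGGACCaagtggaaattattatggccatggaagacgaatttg
Ndufb8: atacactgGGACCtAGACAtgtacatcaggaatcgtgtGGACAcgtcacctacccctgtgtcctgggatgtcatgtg

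Complex II, succinate dehydrogenase, is the only complex whose subunits are all nuclear. Each of its 4 genes had at least 2 peaks, and the median of 1.55 was the lowest among the groups. Sdhb, the iron-sulfur subunit, differed from the others in its listed values: it had 4 peaks, with 14.7-fold at the start codon (log10 p -12.9), 4.43-fold and 1.56-fold in the coding sequence, and 1.42-fold at the stop codon. The 4.43-fold peak was the most significant of the complex (-61.4). The 3 peaks of Sdha, the flavoprotein subunit, ran from 1.15 to 1.55-fold (most significant log10 p -10.3), the 2 of Sdhc were 1.59 and 1.85-fold, and the 2 of Sdhd were 1.47 and 1.5-fold.

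In complex III all 9 genes had a peak, and the median of 2.42 was the highest of the groups. Uqcrb (2.77-fold, log10 p -124) and Uqcr10 (2.65-fold, -98.6) were the most significant, and the Uqcr10 peak covered the whole transcript of 434 nt. Uqcrc1, a core subunit, had 3 peaks, of which the strong one (6.77-fold, -17.6) touched no exon of the longest coding transcript. Uqcr11 had 1 peak of 2.78-fold. Cyc1 (cytochrome c1), Uqcrc2, Uqcrfs1 (the Rieske protein) and Uqcrq had 2 peaks each, from 1.31 to 2.47-fold. Both Uqcrc2 peaks (2.41 and 2.47-fold) lay over exons of Pdzd9 on the opposite strand along their whole length. Cycs, the mobile electron carrier, had 4 peaks, with the most significant over its coding sequence (1.93-fold, -36.9) and the most enriched in the 3′ UTR (3.45-fold, -3.28).

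Complex IV, which reduces oxygen, has common and tissue-restricted isoforms. Of its 20 genes 15 had a peak, and the 5 without were all isoforms known from muscle, testis or hypoxic cells: Cox7a1, Cox7b2, Cox8b, Cox8c and Ndufa4l2. The other 3 restricted isoforms had peaks, although Cox6a2 shared its peak (1.32-fold) with exons of Itgad on the opposite strand. A peak was thus listed for 3 of the 8 restricted isoforms (37.5%), beside 46.3% of all protein-coding genes. Among the members that are not tissue-restricted the share was 95.5%. Cox4i2 had 1 peak at the stop codon of 2.16-fold, and Cox6b2 had 1 of 9.48-fold at the start codon (log10 p -3.20) and 1 of 3.32-fold at the stop codon.

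The common complex IV isoforms included the most enriched member outside complex V. Cox7a2 had 1 peak of 34.1-fold (log10 p -81.3) that covered 95.6% of the transcript, whereas its paralogue Cox7a2l, known as an assembly factor of respiratory supercomplexes, had 2 peaks of 1.77 and 1.61-fold. Cox5b had 5 peaks from 1.30 to 3.93-fold, and Cox6a1 had 1 of 4.03-fold. Cox6c combined 2 significant peaks (3.02-fold with -219 and 2.25-fold with -50.1) with 1 of 9.48-fold at a log10 p of -1.69 that touched no exon of the longest coding transcript. Its 3.02-fold peak covered 451 nt of Cox6c exons against 1375 nt of exons of Vps13b on the opposite strand. The other genes with several peaks (Cox4i1 with 3, and Cox5a, Cox6b1, Cox7b and Ndufa4 with 2) stayed below 5-fold.

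Complex V, the ATP synthase, had the most genes with a strong peak among the groups, 5 of the 17 with a peak. That share of 29.4% stood beside 43.4% of protein-coding genes with a peak. The highest value of all members, 42.7-fold (log10 p -26.5), was assigned to Atp5o, but that peak ran 31679 nt on the genome and covered 350 nt of Atp5o exons against 1871 nt of exons of the antisense gene D430001F17Rik. The libraries' strand setting was not given in the sources used here, so reads of opposite genes could not be told apart. Atp5j2 had a peak of 13.3-fold outside its longest coding transcript (log10 p -6.94) and 1 of 2.39-fold on it (-95.5). Atp5s had 5.69-fold and 3.79-fold peaks with log10 p values of -3.26 and -1.66. The catalytic subunits were weaker, with 2.51 and 1.33-fold in Atp5b (the beta subunit) and 1.59 and 1.12-fold in Atp5a1 (the alpha subunit). Atp5j had 3 peaks (2.04 to 3.08-fold), and Atp5f1, Atp5h, Atp5l and Atp5mpl had 2 each, up to 3.79-fold.

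The 3 genes for the c subunit of the ATP synthase rotor, which encode the same mature protein behind different targeting sequences, were listed with unlike enrichment. Atp5g1 had 1 peak of 16.1-fold (log10 p -32.1) and Atp5g2 had 1 of 11.7-fold (-39.2), while Atp5g3 had 4 peaks from 1.45 to 2.06-fold (most significant -25.0). The coding sequences of Atp5g1 and Atp5g2 had 1 and 2 near-identical pseudogene copies, and no copy was found for Atp5g3 at the same threshold, and the part of these copies in the enrichment was not tested. No difference between the paralogues could be tested with 1 pooled value per peak.

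**Figure D2:**
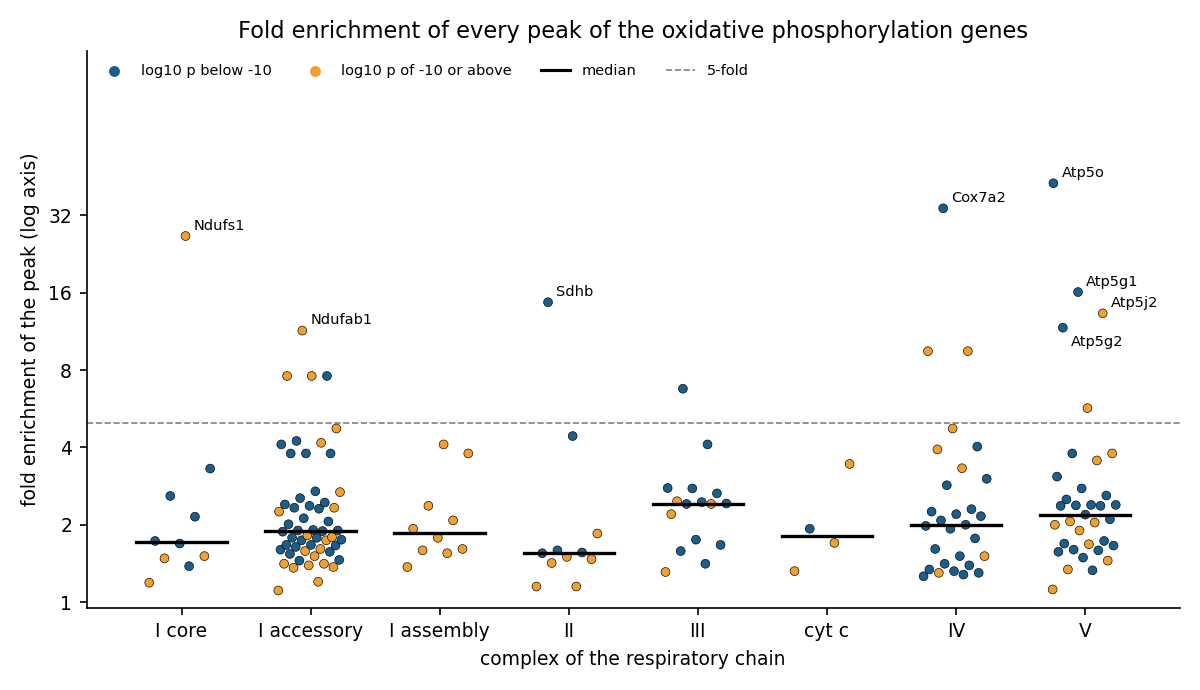
Fold enrichment (y axis, log scale) of each of the 170 peaks by complex (x axis), with blue points below a log10 p of -10, orange points at or above it, black lines for group medians and a dashed line at 5-fold. Group medians run from 1.55 in complex II to 2.42 in complex III, and the names mark peaks of at least 10-fold.

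The assignment of peaks to genes changed the picture at several loci. In all, 10 peaks covered exons of a member but were assigned to another gene. Ndufc2, listed without a peak, lay under a peak of 2.02-fold (log10 p -16.9) over 57.5% of its transcript that was assigned to Gm16053, a processed pseudogene inside the gene. Ndufv2, also listed without a peak, lay under one of 1.69-fold (-42.5) over 45.5% of its transcript, assigned to the small nuclear RNA gene Gm23264 on the opposite strand. For Cox7c the peak on the longest coding transcript (2.40-fold, -105) was assigned to Gm22574, and the peak assigned to Cox7c itself (2.0-fold) was off that transcript. Counting genes with such a peak over at least 30% of their transcript brought the members with a peak to 89 of 96. The other 7 peaks lay over at most 30.8% of the transcript of a member, and all were assigned to genes on the opposite strand. Among these genes were Tssk6 (7.59-fold) over Ndufa13, Braf (3.13-fold) over Ndufb2, Gm20342 (2.84-fold) over Ndufs1, Tfpt (1.98-fold) over Ndufa3, Smim27 (1.74-fold) over Ndufb6 and 1700018A23Rik (1.48-fold) over Ndufa9.

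The reverse also occurred, since 6 of the 170 member peaks touched no exon of their gene. Of these, 4 were assigned to Atp5o although 2 lay over exons of Cryzl1, 1 over exons of Itsn1 and 1 mainly over exons of the antisense gene Gm10785, all within the span of the second Atp5o identifier, which had no peak of its own. In all, 27 member peaks lay over exons of another gene, 21 of them with the largest overlap on the opposite strand.

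**Figure D3:**
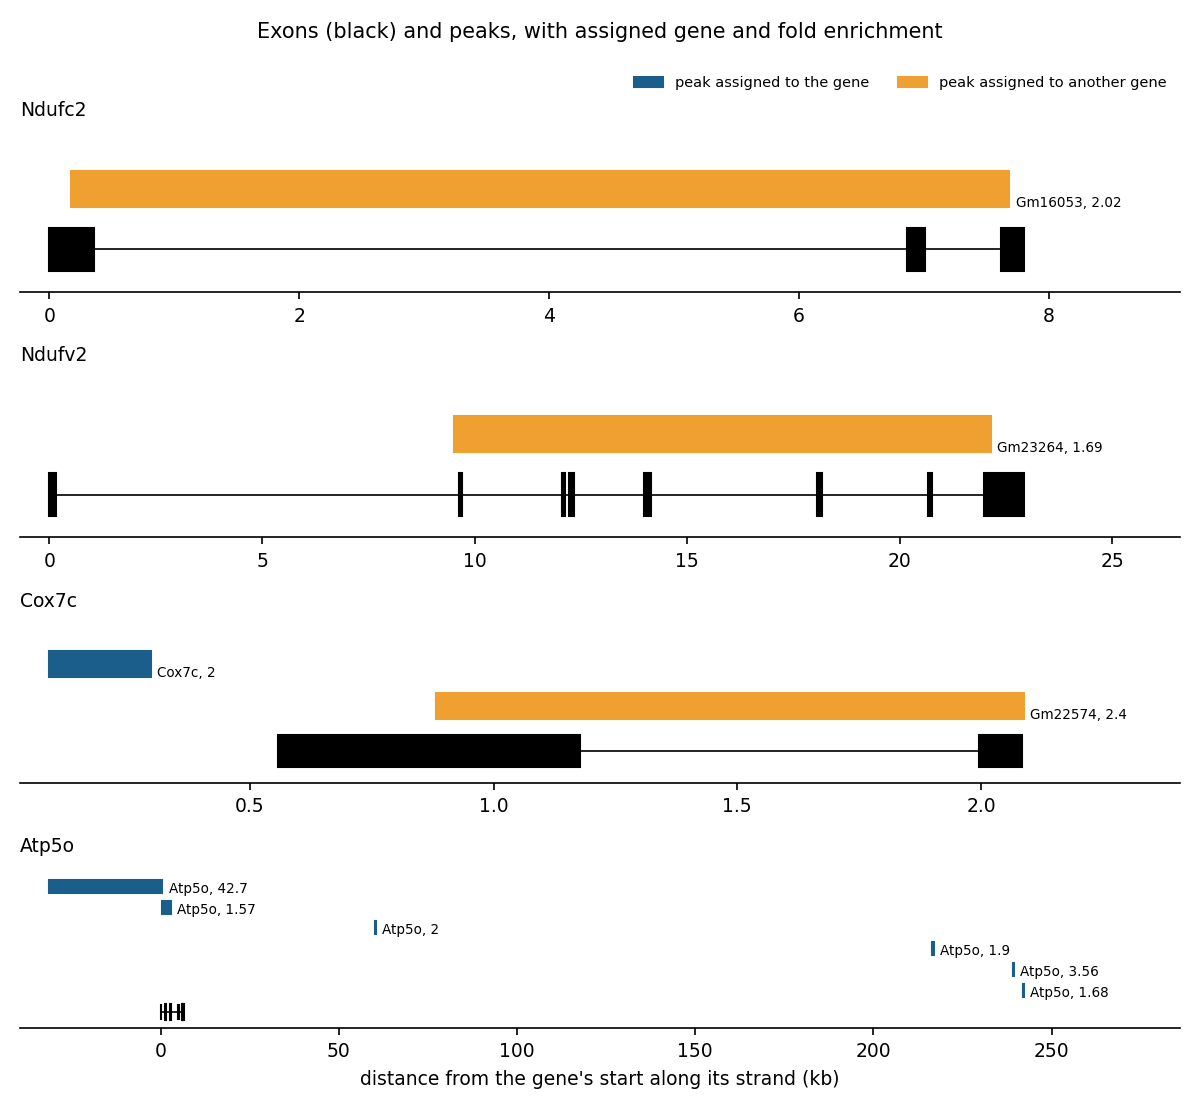
Exons of the longest coding transcript (black) and peaks (bars with the assigned gene and the fold enrichment) of Ndufc2, Ndufv2, Cox7c and Atp5o, by distance from the start of the gene along its strand in kb. Blue bars are peaks assigned to the gene and orange bars peaks assigned to another gene; 4 of 6 Atp5o peaks lie far downstream of its exons.

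On the transcripts, most peaks were centred in the coding sequence. A position could be given to 152 member peaks, those that touched an exon of the longest coding transcript, from the midpoint of their exonic bases. Of these, 61.2% were centred in the coding sequence, 30.3% in the 3′ UTR (95% Wilson interval 23.5 to 38.0, counting error over peaks only) and 8.55% in the 5′ UTR, beside 33.3%, 56.7% and 9.96% over all protein-coding genes. The share of centres at most 200 nt from the stop codon was 46.7%, beside 22.2%. The stop codon itself was inside a peak in 61 members and the start codon in 48. By peaks, the stop codon was inside 40.1% and the start codon inside 33.6%, beside 20.3% and 14.8% over all protein-coding genes. In transcripts under 1 kb, 51.4% of member peaks and 46.4% of the peaks of other genes held the stop codon. For the start codon these shares were 41.7% and 38.6%. Of the 15 most significant member peaks, 14 held the stop codon. Of the 10 strong member peaks that could be placed, 8 held the start codon and 3 the stop codon, beside 43 and 58 of 142 weaker ones. Over all protein-coding genes the start codon was inside 34.2% of strong and 7.84% of weaker peaks, and the stop codon inside 27.1% and 17.8%.

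**Figure D4:**
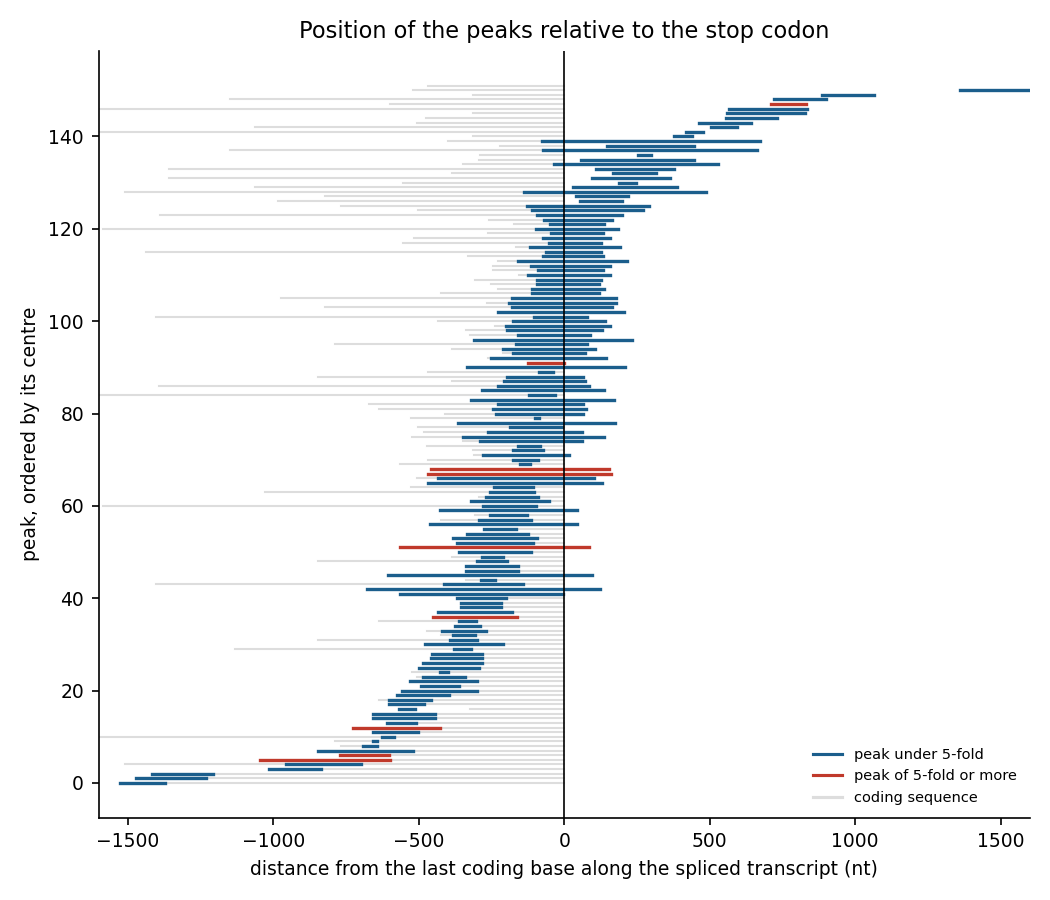
Exonic extent of the 152 placed member peaks (y axis, ordered by centre) by distance from the last coding base along the spliced transcript (x axis, nt), in blue below 5-fold and red at 5-fold or more, with the coding sequence in grey and the longest transcripts cut off at the edges. Of the strong peaks, 8 of 10 reach the start codon.

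The transcripts of these genes were short, and a peak can cover much of a short RNA. The median length of the longest coding transcript was 892 nt in members and 2680 nt over all protein-coding genes, and a peak covered a median of 20.0% and 6.32% of it. Peaks together covered at least 90% of the transcript in 10 of the 86 members with a placed peak, among them Ndufa1, Uqcr10 and Cox8a. Over all protein-coding genes with a placed peak the count was 825 of 9599. Under 1 kb it was 10 of 46 members and 129 of 539 other genes. In transcripts under 1 kb the share of centres within 200 nt of the stop codon was 55.6% for the 72 member peaks and 54.3% for the peaks of other genes, and 23.6% and 25.8% were centred in the 3′ UTR. In the same class 87.0% of the 54 members had a peak, against 22.9% of other genes, counted whether or not they were expressed. Of members with a peak 14.9% had a strong one, against 33.5%. Between 1 and 2 kb the shares were 93.3% against 39.3% with a peak and 14.3% against 33.2% with a strong one. Over 2 kb all 12 members had a peak, against 52.8%, and 25.0% had a strong one, against 47.2%.

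**Figure D5:**
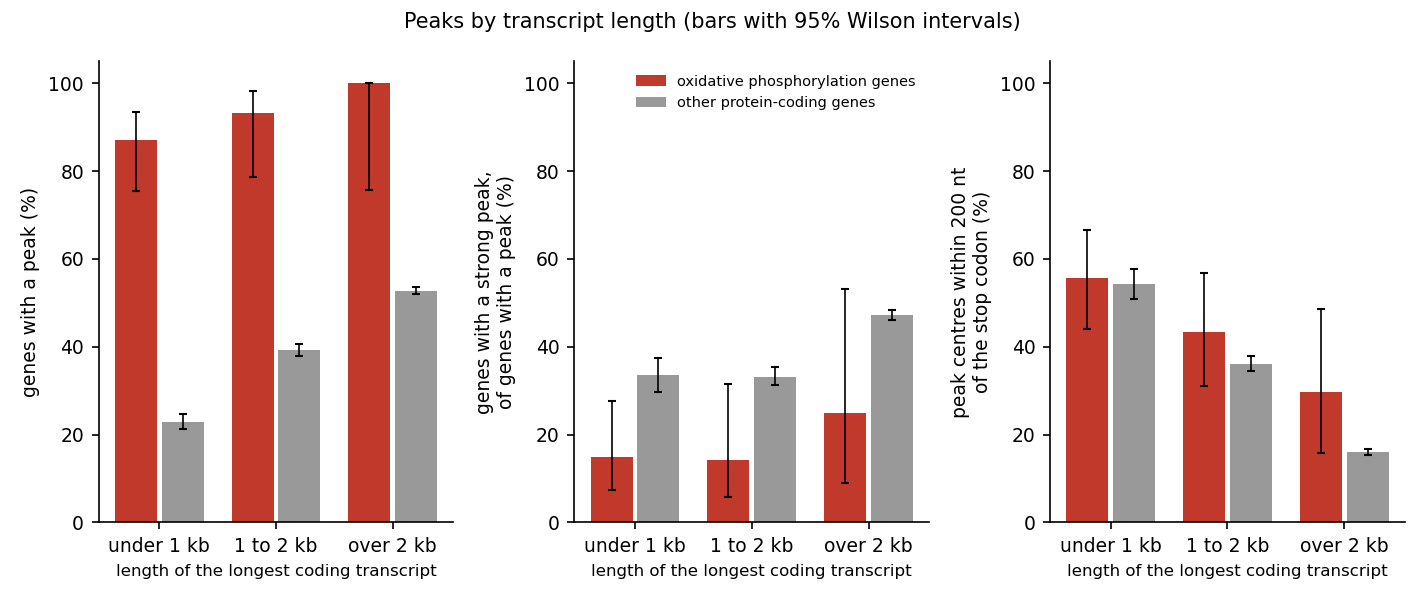
Share of genes with a peak, share of those with a strong peak, and share of peak centres within 200 nt of the stop codon (y axes, %) by transcript length (x axes) for oxidative phosphorylation genes (red) and other protein-coding genes (grey), with 95% Wilson intervals for counting error over genes or peaks. Under 1 kb, 87.0% against 22.9% have a peak and 14.9% against 33.5% a strong one, and 55.6% against 54.3% of centres lie near the stop codon.

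The region labels of the deposited list gave another picture of the same peaks. The list labelled 60 member peaks as 5′ UTR, 80 as 3′ UTR and 30 as exon. Among the first of these, 57 had a position on the transcript, of which 13 were centred in the 5′ UTR and 17 held the stop codon. Among these 17 were the peaks of Cox7a2, Cox6a1 and Cox8a, which began in the first exon. Over all protein-coding genes, 3445 peaks labelled as 5′ UTR had a position. Of those, 1559 were centred in the 5′ UTR and 916 held the stop codon.

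DRACH sites were no denser inside the member peaks than outside them. They numbered 18.8 per kb of spliced sequence inside the peaks (728 sites in 38.7 kb, 95% Poisson interval 17.5 to 20.2) and 20.6 per kb in the rest of the same transcripts, beside 20.2 and 20.4 per kb over all protein-coding genes. For GGAC, counted whatever base followed it, the densities were 3.96 and 4.12 per kb. Of the 152 placed member peaks 14 held no DRACH site and 69 (45.4%) no GGAC, beside 1576 and 7135 (45.4%) of the 15700 placed peaks of all protein-coding genes. These counts used the strand of the transcript and peak spans much longer than a single site, in which the position of a methylated base is not resolved.

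Other gene lists of mitochondrial and translational function placed the values in context, and each is a description of its counts. Among cytosolic ribosomal protein genes 89.0% had a peak and 17.3% of these a strong one (Rpl12 at 74.0-fold and Rpl7 at 34.1-fold were highest), and among mitochondrial ribosomal protein genes 82.1% and 15.6% (Mrpl20 at 281-fold and Mrps26 at 243-fold). Assembly factors of the chain outside the Ndufaf series had peaks in 78.0% and strong ones in 15.6% of those (Cox17, a copper chaperone of complex IV, at 22.2-fold and Acad9 at 9.48-fold). Enzymes of the tricarboxylic acid cycle had 88.2% and 6.67% (Pdhx at 17.1-fold and Suclg2 at 4.27-fold). Of 12 regulators of mitochondrial biogenesis 9 had a peak, with Nrf1, a transcription factor for nuclear respiratory genes, at 43.6-fold and Tfb1m at 11.4-fold, while Ppargc1a, Polrmt and Tfb2m had none. The subunits of the same complexes encoded in the mitochondrial genome had a peak in 10 of 13 genes and a strong one in 0, with mt-Co3 at 3.46-fold and mt-Nd6 at 2.95-fold highest. In the cell type lists, the highest values were Il2rb (2.53-fold) and Klrd1 (2.50-fold) of NK cells, Pax5 (75.9-fold) and Cd79a (7.59-fold) of B cells, Cd3g (31.6-fold) and Cd3e (30.3-fold) of T cells, Cd14 (3.56-fold) and Lyz2 (1.90-fold) of myeloid cells, and Epor (3.58-fold) and Hbb-bs (2.69-fold) of red cells.

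Some members had near-identical copies elsewhere in the genome. At 95% identity or more over at least 80% of the coding sequence, 21 members had 42 such copies elsewhere in the annotated transcripts, 39 of them pseudogenes, with 8 for Atp5l and 4 for Cycs. A single copy was listed with a peak (Gm12231, a copy of Atp5f1, at 9.48-fold with a log10 p of -1.69). How the reads of copies were handled in alignment was not given in the sources used here.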

How the data were processed

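Members and comparison lists were chosen with earlier results of these data known. After trimming, the authors mapped reads with HISAT2 (build GRCm38 per the labels), called peaks with exomePeak and annotated them with ChIPseeker. The deposited list gives for each peak a fold enrichment, a ratio made by the authors, and a score that is the log10 of the unadjusted p-value. It has 0 columns with a value per sample, so depth, replicate spread and per-gene counts are unknown, and the planned count test was not run. Of 20751 rows, 24 exact repeats were dropped. Peaks were taken as assigned by the authors and placed on the longest coding transcript of GENCODE M21, by the exons between the first and last base of the peak (1 nt or more). For 2 members (Atp5g2 and the second Atp5o) the models were incomplete. In Atp5g2 the coding end is missing, and its stop codon was not counted. A strong peak has at least 5-fold enrichment. Named genes were every member with a strong peak, without a peak or with 2 or more peaks, for each complex the 3 most enriched and the 2 most significant members, genes given a peak over a member exon, and the 2 most enriched genes of each other list. Sequence windows from chromosome 18 were left out. Copies were searched with blastn 2.17.0. Tables were made in Python 3.11.15 with pandas 2.3.3 and scipy 1.17.1, and placement was tested on simulated data. Genes and peaks are not replicates, so no test across them was made. Values of 1 member are counted in the totals but not reported here by name.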

Additional observations from a re-analysis of the deposited data

How the results depend on the processing

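Of 29 alternatives for 7 results, 20 left the value within 1.5 times (counts) or within its 95% counting interval (shares, medians and densities). The members with a peak numbered 87 and fell to 56 with peaks of at least 2-fold. Strong-peak genes numbered 14, with 25 at 3-fold and 8 at 10-fold. The median fold of 1.93 became 2.30 for the strongest peak of each gene. The 3′ UTR share of 30.3% was 23.0% by the centre of the genomic span and 47.1% by the region labels of the list. The share near the stop codon of 46.7% was 32.2% within 100 nt and 75.7% within 400 nt, and the density of 18.8 DRACH per kb was 3.96 for GGAC, as these settings count less or more by construction. The alternatives on peaks assigned elsewhere and on complete transcript models (both position shares) were chosen after seeing the data. No paired analysis was possible because the list has no column per sample. For the same reason the alternatives that leave out a library, and the edgeR test, were not run.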
